A study of Homo sapiens with 15 samples.

Results

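HCT116 tumors carrying the K264R mutant of MOAP-1 were compared with HCT116 tumors carrying RASSF1A, with 3 tumors in each group. These 6 tumors were chosen by the construct named in their labels, out of 15 tumors in all. HCT116 is a human colon cancer cell line, and the study grew it as xenografts in athymic nude mice to ask how MOAP-1 and RASSF1A restrain tumor growth. RNA of each tumor was hybridized to its own single-color Agilent human array, which reads the signal of a gene from a short probe. The other 9 tumors carried wild type MOAP-1, a second MOAP-1 mutant (K278R), or the empty vector, with 3 tumors each.

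The K264R tumors came from cells given MOAP-1 in which the lysine at position 264 was replaced by arginine. The RASSF1A tumors came from cells given HA-tagged wild type RASSF1A from a pCDNA3 plasmid. Neither group was an empty-vector control, so a difference between them can lie in either group. Both shared the HCT116 background, the nude mouse host, and transfection that the study describes as transient, so that the cells were pools and not clones, and the share of cells still carrying the plasmid at excision is not given in the sources used here. The tumors were sampled whole, and human probes can also read mouse host RNA. The labels do not tie a tumor to a mouse or a transfection, so p values measure the spread between these tumors.

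MOAP-1 is a BH3-like adaptor that binds RASSF1A once death receptors are engaged and then activates Bax, the protein that opens the mitochondrial outer membrane during apoptosis. RASSF1A is a scaffold of the Ras association domain family that is often silenced in cancers, binds microtubules, and activates the MST kinases of the Hippo pathway. Both proteins are regulated in large part by ubiquitination and turnover, which arrays of mRNA do not measure.

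Signals are given below as log2 values relative to the 75th percentile of their array, so that 0 is a fairly bright gene and the dimmest groups named below lie under -8. Differences are K264R minus RASSF1A on the log2 scale with the standard error of a limma fit over all 15 arrays, and a probe was called when its adjusted p lay below 0.05 and its fold reached 1.5. Among the 6 arrays the 75th percentile signal was 1175.8 to 1402 in the K264R tumors and 612.72 to 817.85 in the RASSF1A tumors, without overlap. Correlations between arrays, over the probes tested, were 0.992 to 0.996 within K264R and 0.988 to 0.993 within RASSF1A. RASSF1A tumor 3 correlated with the K264R tumors at 0.975 to 0.981, and RASSF1A tumors 1 and 2 at 0.961 to 0.97. The 3 K264R tumors shared 1 slide, while RASSF1A tumors 1 and 2 were on a slide scanned on another day and RASSF1A tumor 3 on a slide with the vector tumors, scanned on the K264R day. Slide and construct cannot be told apart here, whereas the scan day can be held constant by setting the K264R tumors against RASSF1A tumor 3 alone. That comparison leaves 1 RASSF1A tumor, still on another slide, and takes the spread from the other groups. A call lost there can thus reflect a larger standard error without a smaller difference, as at H4C8 (-1.45 with all tumors, -1.57 there).

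The tumors were checked for the genes of their constructs first. MOAP1, at chr14:93182199-93184897 (GRCh38.p14), had a signal of 0.11, 0.46, and 0.25 in the K264R tumors and -0.48, -0.52, and -0.23 in the RASSF1A tumors. The groups did not overlap, and MOAP1 was higher in K264R tumors by 0.68 (SE 0.14, adjusted p = 0.00203), or 1.6-fold. Against RASSF1A tumor 3 alone the difference was 0.50 (SE 0.20, adjusted p = 0.121), and it did not pass. RASSF1, at chr3:50329788-50340836, had 1.90, 1.64, and 1.69 in the K264R tumors and 1.56, 1.55, and 1.59 in the RASSF1A tumors. Its signal was thus no higher in the tumors labelled RASSF1A, and the difference of 0.18 (SE 0.10, adjusted p = 0.2) did not pass the test. The files do not say whether either probe lies in the part of the transcript that the plasmid carries, so neither value shows how much of the construct was expressed.

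Epithelial markers were read next, though they cannot tell HCT116 from other epithelial cells. EPCAM, an adhesion protein of epithelial cells, averaged 4.72 in K264R and 4.70 in RASSF1A tumors, and KRT18, a keratin of simple epithelia, 5.37 and 5.14. Of 24 epithelial genes tested 2 were higher and 1 was lower, or 0 lower without K264R tumor 1 or 3 or RASSF1A tumor 2 and 2 lower without K264R tumor 2. KRT20 and VIL1, which mark differentiated enterocytes, lay at -3.05 and -3.58 in K264R tumors, low in both groups. Probes for markers of host tissue gave signal, though whether they read host RNA was not tested. The median level of the leukocyte genes was 0.01 in K264R and 0.54 in RASSF1A tumors and that of the fibroblast genes -0.62 and -0.80, against -1.0 and -1.22 for the epithelial list, though levels of different probes are not on 1 scale. The endothelial genes had a median level of -3.33 in K264R and -3.17 in RASSF1A tumors, with TEK and ERG not well above background in either group, and 1 of 15 was lower (PLVAP, which stood at -1.17 with an adjusted p of 0.0669 against RASSF1A tumor 3 alone). Among the fibroblast genes 1 of 20 was higher and 2 were lower, with LUM, POSTN, FBN1, and COL6A3 not well above background. The signals of the leukocyte genes summed to 68.1 to 77 in K264R and 109 to 116 in RASSF1A tumors, in units of the 75th percentile signal, and 4 of 18 were lower and 0 higher, beside 10.3% lower and 12.3% higher of all named genes. Much of these sums came from the single CD4 probe, at 5.04 to 5.23 in K264R and 5.80 to 5.87 in RASSF1A tumors. The sums thus do not describe the list evenly. With RASSF1A tumor 3 alone, and likewise under quantile normalization, 2 leukocyte genes were lower, and with that tumor alone 0 epithelial genes were called. The unadjusted p lay below 0.05, at any fold, for 0 higher leukocyte genes by limma and 0 by the methods' t-test, and likewise for 0 higher endothelial genes.

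Against this background, the K264R and RASSF1A tumors differed at 7146 of 30369 probes tested (23.5%). These stood for 6705 of 24902 genes (26.9%), of which 3470 (13.9%) had a probe that was higher in K264R tumors and 3342 (13.4%) a probe that was lower. The split depended on the scaling, since with the median of each array set to 0 it was 2761 higher and 4893 lower. The 3 K264R tumors lay apart from the 3 RASSF1A tumors at 98.5% of the called probes, but also at 55.3% of all probes. With RASSF1A tumor 3 alone on the other side, 3752 genes were called, 1578 higher and 2206 lower, with the lone RASSF1A tumor assumed to vary like the other groups. RASSF1A tumor 3 was the RASSF1A tumor nearest to the K264R mean at 75% of the probes called higher, 54% of those called lower, and 45.5% of all probes. Scan day and tumor cannot be told apart in this.

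The largest rises in K264R tumors, 11 genes among named genes well above background in all 6 tumors, included a transcription factor, a glycolytic enzyme, and proteins of the respiratory chain, the proteasome, and the ribosome. SRF, the serum response factor that drives immediate early and cytoskeletal genes (chr6:43171269-43181506), had -1.93, -1.89, and -2.10 in K264R tumors and -5.89, -5.90, and -4.16 in RASSF1A tumors. This was the largest of the 11, a rise of 3.34 (SE 0.43, adjusted p = 8.16e-05) or 10.1-fold, with tumor 3 the highest RASSF1A tumor. LDHA, the lactate dehydrogenase subunit that reduces pyruvate (chr11:18394563-18408425), had 3.44, 3.13, and 3.23 against 0.22, -0.36, and 0.10. All 3 RASSF1A tumors were low, and the rise was 3.28 (SE 0.30, adjusted p = 2.09e-05) or 9.71-fold, while the brighter LDHA probe rose by 1.39. HERC6, an interferon-inducible ubiquitin ligase, had -1.79, -1.72, and -1.69 against -4.94, -5.05, and -4.65. This was 8.86-fold, but the other HERC6 probe differed by 0.00.

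NDUFA9, a subunit of respiratory complex I, rose by 2.68 (SE 0.39, adjusted p = 0.000166). PRDX3, a mitochondrial peroxidase, had 2.21, 2.24, and 2.19 against -0.52, -0.82, and -0.33. PRDX3 thus varied little within either group and differed by 2.77 (SE 0.28, adjusted p = 2.38e-05), or 6.8-fold. PSMC5, an ATPase of the proteasome cap, had 1.04, 1.08, and 0.90 against -2.37, -1.83, and -0.62, or 6.14-fold. RPS3, a protein of the small ribosomal subunit, had 4.05, 4.20, and 4.05 against 0.77, 0.92, and 2.72, where RASSF1A tumor 3 lay nearer to the K264R tumors than to the other RASSF1A tumors. APOBEC3G, a cytidine deaminase that restricts retroviruses, was 1.60, 1.26, and 1.48 against -1.97, -2.55, and -0.28.

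The remaining large rises were TCP1, a subunit of the cytosolic chaperonin, BRK1, a subunit of the WAVE actin complex, and the pseudogene FDPSP2, at 7.85-fold, 6.28-fold, and 6.05-fold. TCP1 and BRK1 each have another probe that was not called, at -0.24 and -0.47, and FDPSP2 resembles its parent gene FDPS, so that the reads of these probes are uncertain. Of these 11 rises, 10 kept the call against RASSF1A tumor 3 alone. The exception was APOBEC3G, at 1.73 (adjusted p = 0.0958).

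**Figure D1:**
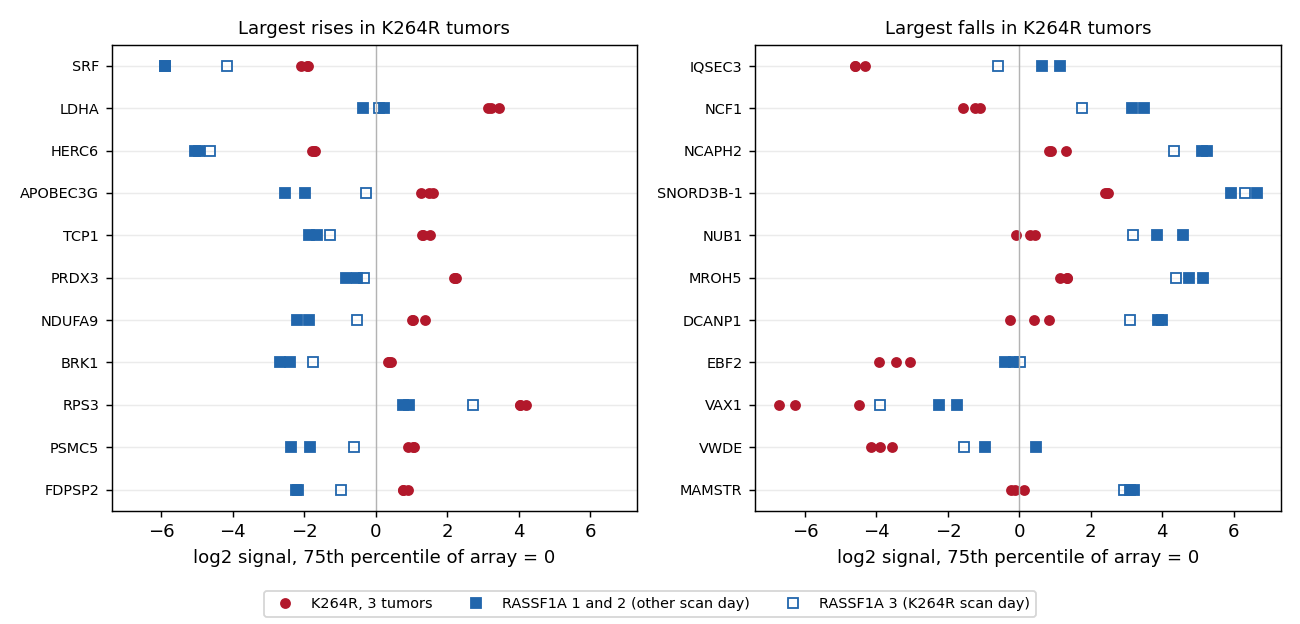
Log2 signal relative to the 75th percentile of the array (horizontal axis) for 11 genes with the largest rises (left) and 11 with the largest falls (right) in K264R tumors. Circles are the 3 K264R tumors, filled squares RASSF1A tumors 1 and 2, and open squares RASSF1A tumor 3, which was the RASSF1A tumor nearest to the K264R mean in 10 of 11 rises and 9 of 11 falls.

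The largest falls, again 11 genes, included genes known from neurons and phagocytes, together with a small nucleolar RNA. IQSEC3, an exchange factor for ARF proteins at inhibitory synapses (chr12:66767-178455), had -4.59, -4.31, and -4.61 in K264R tumors and 0.62, 1.13, and -0.60 in RASSF1A tumors. This was the largest difference of all probes, -4.88 (SE 0.38, adjusted p = 1.88e-05) or 29.5-fold lower in K264R, and the other IQSEC3 probe was also lower by 1.41 on the log2 scale. NCF1, a subunit of the phagocyte NADPH oxidase (chr7:74774011-74789315), had -1.58, -1.10, and -1.24 against 3.49, 3.15, and 1.74. The fold was 17.1, but NCF1 has near-identical copies, and the probe may read them too. The 3 other NCF1 probes differed by -0.27, -1.08, and -0.27, and only that at -1.08 was called. SNORD3B-1, a small nucleolar RNA of ribosomal RNA processing and likewise a multicopy gene (chr17:19061912-19062128), had 2.40, 2.48, and 2.46 against 5.92, 6.64, and 6.31. Neither group varied much, and the fold was 14.4, while the other SNORD3B-1 probe fell by 1.24 on the log2 scale.

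NCAPH2, a subunit of condensin II, had 0.84, 1.30, and 0.89 against 5.25, 5.12, and 4.32 at 1 probe, a fall of 3.89 on the log2 scale, whereas its 2 other probes differed by -0.31 and -0.56 and were not called. NUB1, which directs NEDD8 to the proteasome, had -0.08, 0.43, and 0.30 against 4.58, 3.84, and 3.19, or 12.6-fold. The transcription factors EBF2, of brown fat and neurons, and VAX1, of the forebrain, were 9.85-fold and 9.19-fold lower in K264R tumors. VAX1 was less even, at -6.72, -4.49, and -6.27 in K264R tumors and -2.25, -1.74, and -3.90 in RASSF1A tumors. MROH5 and DCANP1 were 11.3-fold and 9.98-fold lower, while VWDE and MAMSTR, the latter a coactivator of muscle genes, were 9.13-fold and 8.83-fold lower at 1 probe and not called at the other. All 11 except VAX1 kept the call against RASSF1A tumor 3 alone. VAX1 stood at -1.93 there (adjusted p = 0.467), and at -3.01 to -2.75 (adjusted p = 0.0965 to 0.126) with K264R tumor 1 or 3 or RASSF1A tumor 1 or 2 left out.

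At 8 further probes 1 group had no tumor well above background, so that only a lower bound can be given for the signal of that probe. The probes of RSU1, a Ras suppressor that works at focal adhesions, and PALM2AKAP2, an anchor of protein kinase A, were at least 4.09-fold and at least 3.71-fold higher in K264R tumors, and TMEM254 and FHDC1 at least 2.51-fold and at least 1.76-fold. In the other direction the dim probe of PPP1R14A, an inhibitor of smooth muscle myosin phosphatase, was at least 3.39-fold lower and that of ABRA, a muscle activator of SRF signaling, at least 2.61-fold lower. H2BC1, a testis histone, and FAM230C were at least 2.18-fold and at least 1.92-fold lower. The call of RSU1 was lost against RASSF1A tumor 3 alone (adjusted p = 0.0957). Brighter probes of 4 of these genes gave smaller differences, 0.65 for RSU1, 0.23 and -0.17 for TMEM254, -0.96 for PPP1R14A, and -0.01 for FAM230C, and those of TMEM254 and FAM230C were not called, so the bounds hold for the single probes and not for these genes. All 8 probes turned in sign under 1 of 2 settings of another background correction.

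Of the 20 members of the RASSF1A and MOAP-1 route, 8 were higher in K264R tumors and 1 lower, or 40% and 5%, with a median difference of 0.34. Among all 17932 named genes at their brightest probe 12.3% were called higher and 10.3% lower, with a median of -0.06. MOAP1 itself is 1 of the 8, AURKB also counts in the proliferation list, and MCL1 in the immediate early and SRF list. The lists were chosen with earlier results of these data known, so these shares describe the members and are no test. With RASSF1A tumor 3 alone in the comparison, 4 members were higher and 0 lower.

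Both anti-apoptotic and pro-apoptotic members of the BCL2 family were among those that rose. MCL1, which holds Bak and Bax in check, had 0.13, -0.11, and -0.14 in K264R tumors and -2.24, -2.94, and -1.99 in RASSF1A tumors. It rose by 2.35 (SE 0.28, adjusted p = 4.98e-05), or 5.11-fold, with all RASSF1A tumors low. BAK1, a pore-forming partner of Bax, rose 2.19-fold, with RASSF1A tumor 3 at -0.84 between the other RASSF1A tumors (-1.38 and -1.47) and the K264R tumors (-0.22 to 0.00). BCL2 rose 1.72-fold and BCL2L1, the gene of Bcl-xL, 1.57-fold, and both are anti-apoptotic, though without RASSF1A tumor 2 the rise of BCL2L1 was 0.56 and under 1.5-fold. BAX, the effector activated by MOAP-1, differed by 0.47 (SE 0.15, adjusted p = 0.0195), a change of 1.39-fold that was under the threshold for a call, and its other probe stood at -0.28. The dimmer BCL2 probe, at -0.11, was not called. BAK1 (0.74, adjusted p = 0.0713) and BCL2L1 (0.35, adjusted p = 0.109) lost the call against RASSF1A tumor 3 alone, whereas MCL1 and BCL2 did not.

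The mitotic partners of the route also rose. AURKB, a kinase of the chromosomal passenger complex that phosphorylates RASSF1A, had -1.74, -1.54, and -1.78 in K264R tumors and -4.05, -3.23, and -2.85 in RASSF1A tumors. The rise was 3.21-fold (SE 0.24 on the log2 scale, adjusted p = 0.000169). CDC20, the activator of the anaphase-promoting complex that RASSF1A binds, rose by 0.82 (SE 0.17, adjusted p = 0.00188), while FZR1, the other activator, differed by -0.22 (SE 0.11, adjusted p = 0.124). TRIM39, which binds and stabilizes MOAP-1, had -1.31, -1.13, and -1.33 against 0.13, 0.10, and -0.32 and fell by 1.22 on the log2 scale (SE 0.22, adjusted p = 0.000826), although its other probe differed by 0.06. The death receptors and their adaptors passed no call, with TNFRSF1A at -0.15, TNFRSF10A at 0.31, TNFRSF10B at -0.34, TRADD at -0.11, and RIPK1 at -0.06, and neither did the relatives RASSF5 (0.37) and RASSF6 (0.16) or the adaptor YWHAE (0.08). With RASSF1A tumor 3 alone the calls of CDC20 (0.44) and TRIM39 (-0.93) were lost at adjusted p values of 0.119 and 0.0696, and RASSF5 was called at 0.62 (adjusted p = 0.0493).

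**Figure D2:**
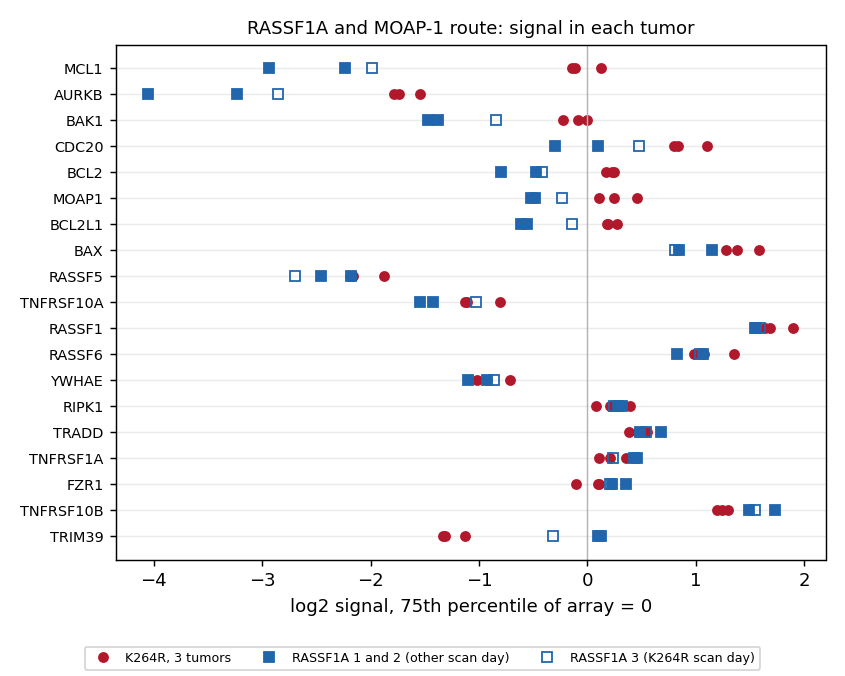
Log2 signal relative to the 75th percentile of the array (horizontal axis) for 19 members of the RASSF1A and MOAP-1 route, ordered by their difference. Circles are K264R tumors, filled squares RASSF1A tumors 1 and 2, and open squares RASSF1A tumor 3, and the groups lie furthest apart at MCL1 and AURKB at the top and TRIM39 at the bottom.

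The wider apoptosis list showed both directions, with 5 of 30 higher (16.7%) and 3 lower (10%). Of all named genes 12.3% were higher and 10.3% lower, so the list lay near the background share. CASP8, the initiator caspase of death receptors, rose 2.25-fold, and HTRA2, a mitochondrial protease that antagonizes caspase inhibitors, rose 2.15-fold. APAF1, the core of the apoptosome, had -3.48, -3.51, and -3.51 in K264R tumors and -4.58, -4.38, and -4.45 in RASSF1A tumors, a rise of 0.96 (SE 0.11, adjusted p = 4.86e-05) with little spread in either group. The BH3-only genes BCL2L11 (Bim), BBC3 (Puma), and HRK fell by 0.96, 0.72, and 0.73 on the log2 scale. Among the p53 target genes 3 of 28 were higher (ZMAT3, CCNG1, and SESN1) and 3 lower (MDM2, CDIP1, and BBC3), near the background share in both directions. Without K264R tumor 1 or 3 or RASSF1A tumor 1 or 2, CCNG1 lost its call (adjusted p = 0.0532 to 0.0927). The calls lost against RASSF1A tumor 3 alone were those of CASP8, BCL2L11, BBC3, ZMAT3, and CCNG1. BCL2L11, CCNG1, MDM2, and CDIP1 each have other probes, none of which was called.

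Of the Hippo pathway, which RASSF1A feeds through the MST kinases, 0 of 24 genes were higher and 2 lower by the limma fit. At an unadjusted p below 0.05 and any fold, 2 were higher and 8 lower by limma, and 1 higher and 7 lower by the methods' t-test. Without RASSF1A tumor 3 there was 1 called higher. MOB1B, a coactivator of the LATS kinases, had 0.25, 0.48, and 0.40 against 2.45, 2.46, and 2.03, or 3.83-fold lower, but its other probes stood at 0.25, which was not called, and -0.82. STK4, which encodes MST1, fell by 0.64 on the log2 scale at its brighter probe and rose by 1.49 at its other probe, so that its direction is not settled. The YAP targets CCN1 and CCN2, at 0.14 and 0.46, did not pass the test. Tubulins and microtubule proteins had 4 of 30 higher (13.3%) and 2 lower (6.67%), beside 12.3% and 10.3% of all named genes. Among the higher were TUBB4B (2.10-fold), TUBA1A (1.97-fold), and MAP1B (2.03-fold, at 1 of its 2 probes). The lower were MAP1S (3.04-fold) and MAP4 (1.85-fold), the latter at 1 of its 5 probes. TUBB4B, TUBA1A, and MAP4 lost the call against RASSF1A tumor 3 alone.

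Genes of the cell cycle rose in K264R tumors where they passed the call. Of 27 proliferation genes 9 were higher (33.3%) and 0 lower, with a median of 0.25. TOP2A, the topoisomerase that untangles replicated DNA, had -0.36, -0.57, and -0.35 in K264R tumors and -2.24, -2.67, and -2.35 in RASSF1A tumors. The groups were clearly apart, by 1.99 (SE 0.26, adjusted p = 9.09e-05), or 3.99-fold. KIF20A, a kinesin of cytokinesis, rose 2.88-fold. Yet MKI67, the gene of the Ki-67 antigen, and CCNB1, cyclin B1, differed by -0.52 (adjusted p = 0.00488) and -0.51 (adjusted p = 0.00446), which is under 1.5-fold and in the other direction. Against RASSF1A tumor 3 alone 7 of the list were higher, and without that tumor 1 was lower. At an unadjusted p below 0.05 and any fold, 3 were lower by limma and 3 by the methods' t-test.

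The replication list had 7 of 35 higher (20%) and 1 lower. RRM2, the regulated subunit of ribonucleotide reductase, had 2.21, 2.22, and 1.98 against 0.34, -0.03, and 0.29, a rise of 1.93 (SE 0.20, adjusted p = 2.35e-05). POLA2 and RFC2, of the primase complex and the clamp loader, rose 2.95-fold and 2.94-fold, while POLD1, the catalytic subunit of polymerase delta, fell 1.65-fold. DNA repair had 9 of 32 higher (28.1%) and 1 lower, but the median was 0.04, and only 16 of the 32 differences lay above 0. PRKDC, the DNA-dependent protein kinase of end joining, had 0.50, 0.58, and 0.47 against -1.35, -1.44, and -1.14. Its probes concurred at 1.83 and 2.26. NHEJ1, of the same repair route, rose by 1.30, PARP3 by 1.80, and MRE11, the nuclease, fell by 0.59 on the log2 scale, which dropped below 1.5-fold (-0.58 to -0.50) without K264R tumor 1 or 2 or RASSF1A tumor 2 or 3. Without RASSF1A tumor 1 the repair list had 2 lower. POLA2, POLD1, PARP3, and MRE11 lost the call against RASSF1A tumor 3 alone, with adjusted p values of 0.0606, 0.0784, 0.0745, and 0.0596, and with that tumor alone 4 replication and 5 repair genes were higher and 0 of either list lower.

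Many replication-dependent histone genes fell in K264R tumors. These genes are transcribed in S phase, and their mRNAs end in a stem loop in place of a poly(A) tail. Of 28 tested, 14 were lower in K264R tumors (50%, beside 10.3% of all named genes) and 2 were higher (7.14%), and the median was -0.67. With RASSF1A tumor 3 alone in the comparison, 6 were lower and 0 higher, with a median of -0.68. Histone genes of 1 class are alike in their coding sequence, so that a probe may read several of them and the members are not independent.

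Promoters of 4 histone genes are shown, because members of the family moved in both directions. H4C8 had the largest fall, H1-3 and H2BC21 were lower, and H2BC6 had the largest rise. H1-3 and H2BC21 were chosen after their values were seen. The windows are the 250 bases before the start of the gene in RefSeq (GRCh38.p14), written on the strand of the gene. Capitals mark the CCAAT box, the letters TATAA of a TATA box, and the octamer ATGCAAAT of histone H2B promoters, on either strand, and some of the marks overlap. The window of H4C8 lies at chr6:26285535-26285784 on the minus strand, that of H1-3 at chr6:26234988-26235237 on the minus strand, that of H2BC21 at chr1:149886683-149886932 on the minus strand, and that of H2BC6 at chr6:26183511-26183760 on the plus strand.
H4C8: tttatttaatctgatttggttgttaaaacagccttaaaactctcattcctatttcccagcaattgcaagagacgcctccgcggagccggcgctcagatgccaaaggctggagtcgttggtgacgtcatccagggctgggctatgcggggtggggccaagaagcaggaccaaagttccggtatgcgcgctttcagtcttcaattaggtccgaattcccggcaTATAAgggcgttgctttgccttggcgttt
H1-3: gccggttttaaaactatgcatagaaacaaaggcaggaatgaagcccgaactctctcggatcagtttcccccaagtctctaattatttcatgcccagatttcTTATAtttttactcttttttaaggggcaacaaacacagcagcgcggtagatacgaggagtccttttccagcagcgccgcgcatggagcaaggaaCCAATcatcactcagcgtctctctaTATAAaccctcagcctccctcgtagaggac
H2BC21: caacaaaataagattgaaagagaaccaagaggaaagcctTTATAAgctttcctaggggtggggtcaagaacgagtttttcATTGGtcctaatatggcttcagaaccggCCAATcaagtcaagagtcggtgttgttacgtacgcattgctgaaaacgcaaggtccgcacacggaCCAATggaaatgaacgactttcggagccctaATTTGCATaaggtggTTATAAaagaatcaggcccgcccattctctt
H2BC6: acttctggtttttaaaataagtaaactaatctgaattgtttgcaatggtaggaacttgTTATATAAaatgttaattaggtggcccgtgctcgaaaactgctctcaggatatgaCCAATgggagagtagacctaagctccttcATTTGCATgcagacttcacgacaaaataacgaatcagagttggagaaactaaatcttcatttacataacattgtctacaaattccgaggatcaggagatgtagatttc

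In these windows TATAA began 29 bases before the start of H4C8 and 30 bases before that of H1-3 and H2BC21, whereas in H2BC6 the nearest match began 189 bases before. Windows of 300 bases, with 50 bases after the start, were found for 26 of the 28 histone genes tested. TATAA on either strand stood in 25 of these 26 and in 21.1% of 27305 RefSeq promoters. CCAAT stood in 24 of 26 (35.7% of all promoters), and ATGCAAAT in 13 of 26 (1.8%). Among the 12 genes that were lower, TATAA was found in 11, CCAAT in 10, and ATGCAAAT in 5. Among the other 14 genes TATAA was found in 14, CCAAT in 14, and ATGCAAAT in 8. Positions of TATAA were compared only in the windows shown, so they do not tie position to direction. These matches describe the letters of the windows and show no binding.

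H4C8 (chr6:26285126-26285534) had -0.69, -0.30, and -0.50 in K264R tumors and 0.70, 1.09, and 1.07 in RASSF1A tumors. All K264R tumors lay below 0 and all RASSF1A tumors above it, a fall of 1.45 on the log2 scale (SE 0.33, adjusted p = 0.00357) or 2.73-fold. H4C9 and H4C5 fell by 1.37 and 1.34 on the log2 scale, likewise without overlap. H1-3, a linker histone, had -0.74, -0.71, and -0.69 against 0.26, 0.56, and 0.43, a fall of 1.13 on the log2 scale (SE 0.16, adjusted p = 0.000166). H2BC21 had -4.46, -4.10, and -4.40 against -3.37, -3.36, and -3.46. H2BC6 had 0.38, -0.42, and -0.60 against -1.35, -1.45, and -0.71, a rise of 0.96 (SE 0.24, adjusted p = 0.00571), and H3C8 rose by 0.60, or by 0.52 to 0.58 and under 1.5-fold without K264R tumor 2 or RASSF1A tumor 1 or 2. Of these genes H4C8 (-1.57, adjusted p = 0.0539), H4C5 (-1.29, adjusted p = 0.094), H2BC6 (0.50, adjusted p = 0.298), and H3C8 (0.35, adjusted p = 0.243) lost the call against RASSF1A tumor 3 alone. Small nucleolar and Cajal body RNAs, which likewise lack a poly(A) tail, had 0 of 26 genes higher and 14 lower (53.8%), with a median of -0.68. None was higher at an unadjusted p below 0.05 by limma (0) or by the methods' t-test (0).

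**Figure D3:**
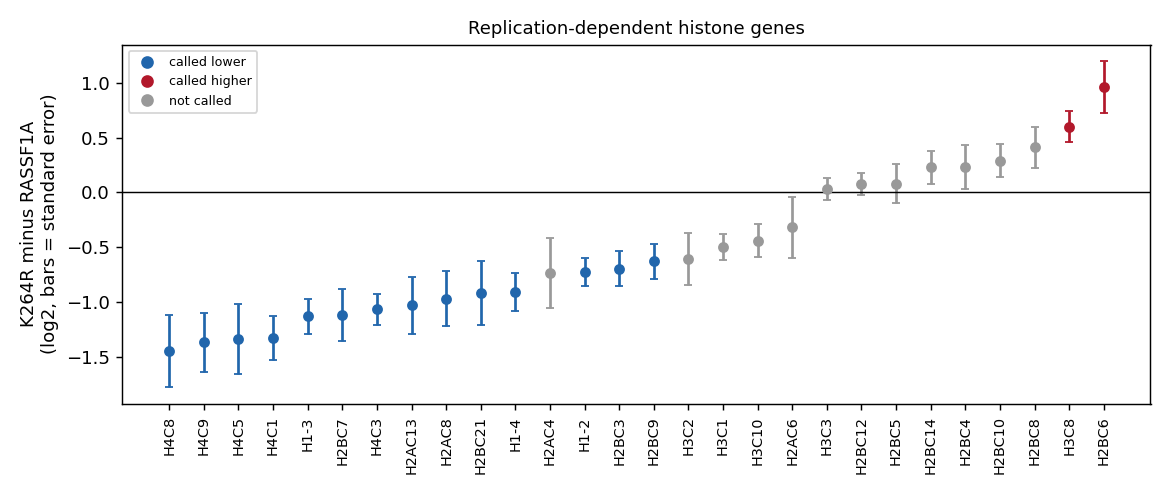
Difference in log2 signal, K264R minus RASSF1A (vertical axis), for the 28 replication-dependent histone genes tested, at the brightest probe of each, with bars of 1 standard error of the limma fit. Of the genes, 14 were called lower, from -0.63 at H2BC9 to -1.45 at H4C8, and 2 were called higher.

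Metabolic genes were higher in K264R tumors at several steps, with exceptions. Of 20 glycolysis genes 7 were higher (35%) and 1 lower, and the median was 0.05, or -0.08 with the median of each array set to 0 and 0.34 under quantile normalization. There were 3 higher with RASSF1A tumor 3 alone. ENO1 and ENO2, the enolases, rose by 2.07 and 2.23, and PKM, pyruvate kinase, by 1.40. ENO1 had 3.91, 3.97, and 3.88 in K264R tumors and 0.86, 1.75, and 2.95 in RASSF1A tumors, which spread widely. PFKL, the liver phosphofructokinase, went the other way, with 1.48, 2.13, and 1.93 against 4.92, 4.93, and 4.48, a fall of 2.93 on the log2 scale (SE 0.31, adjusted p = 2.61e-05) or 7.61-fold. PKM did not pass against RASSF1A tumor 3 alone, at 0.68 (adjusted p = 0.101).

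Hypoxia genes had 8 of 28 higher (28.6%) and 0 lower, with a median of 0.36. SLC2A3, a glucose transporter, had -1.32, -0.92, and -1.38 against -3.69, -4.33, and -3.15, a rise of 2.52 (SE 0.23, adjusted p = 2.08e-05), and its other probe rose by 2.35. DDIT4, an inhibitor of mTORC1, rose by 1.08, and NDRG1, a stress-inducible gene, by 0.97. CA12, a membrane carbonic anhydrase well above background in 1 of 3 RASSF1A tumors, rose by 2.38, a size that rests on signals near background, whereas CA9, its relative, and VEGFA, the angiogenic factor, at 0.48 (adjusted p = 0.216) and 0.72 (adjusted p = 0.0663), did not pass. Against RASSF1A tumor 3 alone 2 of the list were higher, with a median of 0.36, and without RASSF1A tumor 2 there were 5 higher, with CA12 at 1.72 (adjusted p = 0.0627). DDIT4 and CA12 lost the call against RASSF1A tumor 3 alone. By limma and by the methods' t-test alike, 0 of the list were lower at an unadjusted p below 0.05.

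Of 24 genes of cholesterol synthesis and uptake 8 were higher (33.3%) and 0 lower, with a median of 0.33. MSMO1, a sterol oxidase, had -0.16, -0.24, and -0.36 against -2.45, -2.87, and -2.06. The tumors of each group lay close together and 2.21 apart (SE 0.18, adjusted p = 1.88e-05). HMGCS1, which makes HMG-CoA, rose by 1.45. Against RASSF1A tumor 3 alone 5 of the list were higher. Taken at an unadjusted p below 0.05 and any fold, 1 was lower by limma and 1 by the methods' t-test.

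The respiratory chain list split. Of 38 subunits 10 were higher (26.3%) and 3 lower (7.89%), yet the median was -0.28, because most of the others lay slightly below 0. ATP5F1B, the catalytic subunit of ATP synthase, rose 3.59-fold, and SDHD, COX6A1, and COX6C were the 3 that fell, by 0.69, 0.66, and 0.64 on the log2 scale. Without RASSF1A tumor 2 the fall of COX6C was 0.53 and under 1.5-fold, and without K264R tumor 2 or RASSF1A tumor 3 the list had 6 or 5 lower. With the median of each array set to 0 the list had 9 higher and 9 lower. Normexp background correction gave 8 higher and 8 lower, and quantile normalization 11 higher and 0 lower. At an unadjusted p below 0.05 and any fold, 12 were higher and 19 lower by limma. SDHD and COX6A1, both at -0.58, and COX6C, at -0.49, lost the call against RASSF1A tumor 3 alone, where 5 subunits were higher and 0 lower. The other probes of SDHD, at 0.35 and 0.04, were not called. Cytosolic ribosomal proteins had 5 of 45 higher and 9 lower, with a median of -0.28. Their direction turned with the scaling, since quantile normalization gave 11 higher, 0 lower, and a median of 0.11, and it likewise moved the median of the respiratory chain to 0. Without RASSF1A tumor 2 there were 5 ribosomal genes lower, and without RASSF1A tumor 3 there were 8 higher, and with RASSF1A tumor 3 alone 1 was higher and 1 lower.

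Proteasome subunits had 8 of 30 higher (26.7%) and 0 lower, with a median of 0.29, and 5 were higher against RASSF1A tumor 3 alone. At an unadjusted p below 0.05 and any fold, 4 were lower by limma and 5 by the methods' t-test. PSMC3, an ATPase of the cap, had 0.98, 0.96, and 0.89 in K264R tumors and -2.59, -1.31, and -0.19 in RASSF1A tumors, which were far less even. PSMB5, the chymotrypsin-like subunit, had 3.18, 3.39, and 3.18 against 1.49, 1.50, and 2.09 and rose by 1.56 (SE 0.20, adjusted p = 7.66e-05). Endoplasmic reticulum and integrated stress genes had 5 of 27 higher (18.5%) and 2 lower (7.41%), beside 12.3% and 10.3% of all named genes. In that list PDIA6, a disulfide isomerase, rose by 2.33 and DDIT3, the gene of CHOP, by 1.78. CRELD2 and VLDLR fell by 1.28 and 1.46 on the log2 scale. VLDLR stood at -0.74 (adjusted p = 0.0733) against RASSF1A tumor 3 alone and lost its call, and its other probe, at 0.16, was not called.

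**Figure D4:**
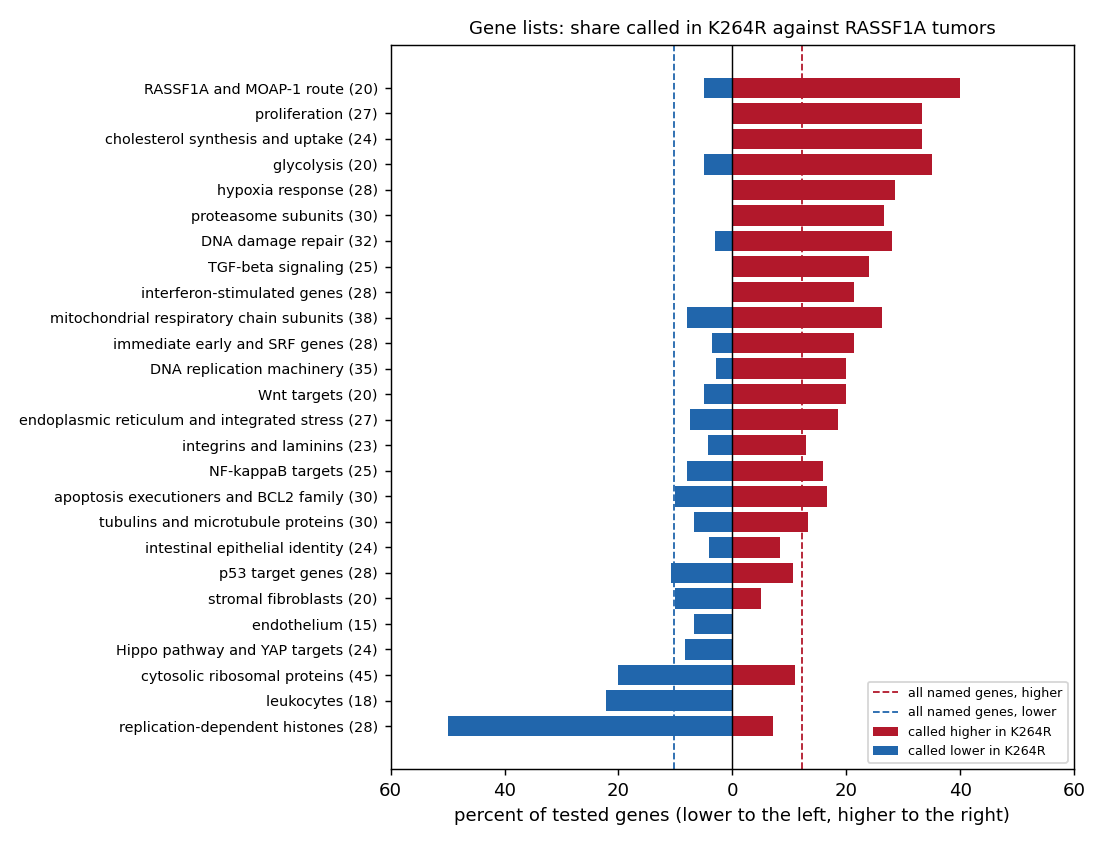
Share of the genes of each list, in percent of those tested (number in parentheses), that were called higher (right) or lower (left) in K264R tumors, with dashed lines at the shares over all named genes, 12.3% higher and 10.3% lower. The histone list reached 50% lower, and the route of RASSF1A and MOAP-1 reached 40% higher. The lists were chosen with earlier results of these data known, so the shares are descriptive.

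Several of these counts moved with the scaling or the background correction. DNA repair had 5 higher under quantile normalization, 4 with the median of each array set to 0, 3 with normexp background correction, and 2 with normexp without extreme spots. Hypoxia genes had 3 higher and TGF-beta and immediate early genes 2 each with normexp, and immediate early genes 3 with the median set to 0. The counts of higher genes in the proliferation, cholesterol, proteasome, glycolysis, and route lists lay between 5 and 9 under these 3 settings.

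In each of the signaling lists, 3 to 6 members were higher in K264R tumors. Interferon-stimulated genes had 6 of 28 higher (21.4%) and 0 lower. IFIT3, an antiviral effector, had 0.04, -0.13, and 0.47 against -2.28, -2.97, and -0.93 and rose by 2.19 (SE 0.44, adjusted p = 0.00172), and OAS1, an RNA sensor, rose by 1.71. ISG15, at 0.33, did not pass, and against RASSF1A tumor 3 alone 1 of the list was higher. Lower at an unadjusted p below 0.05 were 0 by limma and 1 by the methods' t-test. Of the immediate early and SRF genes 6 of 28 were higher (21.4%) and 1 lower. VCL, the SRF target vinculin, rose by 1.01 and FOS by 0.63, while EGR1, at 0.37 (adjusted p = 0.151), did not pass, and 2 of the list were higher against RASSF1A tumor 3 alone and 3 without RASSF1A tumor 2. IFIT3 (1.06, adjusted p = 0.142) and VCL (0.94, adjusted p = 0.0769) lost the call against RASSF1A tumor 3 alone.

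TGF-beta genes had 6 of 25 higher (24%) and 0 lower. SMAD2, a receptor-activated transducer, had -2.09, -2.35, and -2.09 against -3.52, -4.01, and -3.78, a rise of 1.60 (SE 0.30, adjusted p = 0.00103). BMP4, a ligand of the same family, rose by 1.41, and against RASSF1A tumor 3 alone 2 of the list were higher. By limma 2 were lower at an unadjusted p below 0.05 and any fold, and by the methods' t-test 1. NF-kappaB genes had 4 of 25 higher (16%) and 2 lower (8%), beside 12.3% and 10.3% of all named genes. Without K264R tumor 1 or 3 there was 1 lower. RELA, the p65 subunit, had 0.26, 0.37, and 0.24 against -1.02, -1.07, and -0.70, with 1.22 and 1.01 at its probes. Wnt targets had 4 of 20 higher, among them CCND1 (2.40-fold) and SOX9 (2.23-fold), and 1 lower (BAMBI), and integrins and laminins had 3 of 23 higher (near the background share) and 1 lower. Counts of higher genes with RASSF1A tumor 3 alone were 2 for NF-kappaB, 1 for Wnt, and 0 for integrins and laminins. BMP4, CCND1, and BAMBI lost the call against RASSF1A tumor 3 alone.

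Of the markers of other cells, TYROBP, an adaptor of myeloid and natural killer cells, had 0.51, 1.05, and 0.82 against 3.12, 2.79, and 2.78, a fall of 2.11 on the log2 scale (SE 0.23, adjusted p = 3.41e-05). CD4 and NKG7 fell by 0.69 each on the log2 scale, NKG7 with an adjusted p of 0.055 and 0.0551 when K264R tumor 1 or RASSF1A tumor 2 was left out, while PTPRC, the common leukocyte antigen, at 0.30 (adjusted p = 0.198), and CD68, of macrophages, at 0.07, did not pass. The CD4 probe was bright in both groups, at 5.14 in K264R and 5.83 in RASSF1A tumors. Whether these human probes read leukocyte RNA was not tested. Even if they do, fewer cells of a type and less RNA per cell cannot be told apart in whole tumors. COL5A1, a fibrillar collagen, fell by 2.40 on the log2 scale at its brighter probe and stood at 0.65 at the other, which was not called. COL6A2 rose by 1.12, and SPARC, a matrix protein, fell by 0.66 on the log2 scale, or by 0.53 and under 1.5-fold without RASSF1A tumor 1. COL1A1, PDGFRB, and PECAM1, at -0.25, 0.01, and 1.00, did not pass. NKG7, COL6A2, and SPARC lost the call against RASSF1A tumor 3 alone, while TYROBP, CD4, and COL5A1 did not.

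The levels in the other constructs are given side by side. MOAP1 averaged 0.27 in K264R, 0.46 in K278R, 0.59 in MOAP-1, -0.28 in Vector, and -0.41 in RASSF1A tumors. SRF averaged -1.97, -2.20, -1.75, -4.04, and -5.31 in the same order. LDHA averaged 3.27, 2.48, 3.25, 0.78, and -0.01. At each of these 3 genes the Vector and RASSF1A averages lay below those of the MOAP-1 constructs, with RASSF1A the lowest.

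TOP2A averaged -0.43 in K264R, -1.59 in K278R, -0.70 in MOAP-1, -2.53 in Vector, and -2.42 in RASSF1A tumors, so that the K278R tumors stood between. NCF1 averaged -1.30, -0.36, -0.66, 1.16, and 2.79, with Vector between RASSF1A and the MOAP-1 constructs. H4C8 averaged -0.50, 0.27, 0.04, 0.88, and 0.95, and SNORD3B-1 2.45, 3.51, 4.23, 6.47, and 6.29, with K264R lowest in both. These are levels without a test between the other constructs. The slides of the Vector and RASSF1A tumors held no tumor of a MOAP-1 construct, so slide and this division cannot be told apart.

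**Figure D5:**
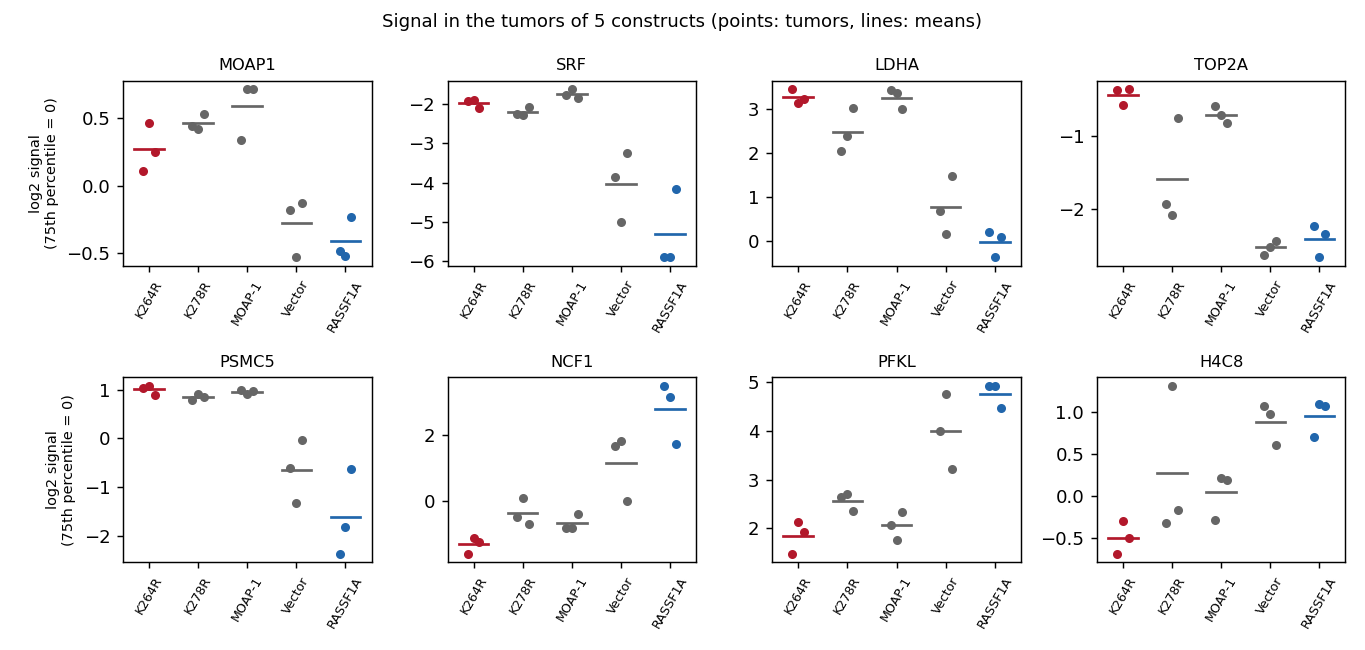
Log2 signal relative to the 75th percentile of the array (vertical axis, scaled separately in each panel) of 8 genes in the tumors of 5 constructs, with a point for each tumor and a line at the mean. K264R (red) and RASSF1A (blue) are the constructs compared, and RASSF1A lies near Vector at MOAP1, TOP2A, and H4C8.

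How far a call held across probes and probe types was also counted. Of 883 genes with several probes that were called at the brightest, the second probe moved the same way in 553 (62.6%), was called the same way in 218 (24.7%), and was called the opposite way in 69 (7.81%). The median difference toward the first probe was 0.18, beside 0.92 at the first probe. Probes of the identifier series A_24 were called higher at 21.7% and lower at 8.8%, and those of the series A_33 higher at 5.92% and lower at 15.4%. The brightest 20% of probes was higher at 7.08% and lower at 18.8%. Probe series and brightness thus moved with the direction of the call, and their part in the results above was not tested.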

How the data were processed

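Values came from 15 single-color Agilent arrays. Per the file headers, the authors deposited background-corrected spot intensities of each array from Agilent Feature Extraction 10.5.1.1 (9.1 per the labels), with arrays not yet scaled to each other. The authors also deposited a log2 table made in GeneSpring, normalized to the 75th percentile and centered by probe, which served only as an alternative. Control spots and outlier-flagged spots were removed. On the log2 scale, each array was shifted to put its 75th percentile at 0, and spots of a probe were averaged, which gave 34127 probes, 25422 of them with a RefSeq symbol (GRCh38.p14, 74.5%). Probes well above background in all 3 tumors of K264R or of RASSF1A were tested. All 15 arrays were fitted with limma 3.58.1 (lmFit and eBayes, R 4.3.3), with construct as the only term and 10 residual degrees of freedom. Adjusted p values are Benjamini-Hochberg values of this fit. A call at 1 probe sufficed to call its gene.

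Lists were described at the brightest probe of each gene. Named were the construct genes, the 12 largest rises and falls that were well above background in all 6 tumors without overlap, 4 bounds in each direction, the 3 largest called rises and falls of each list, and the whole route list. Other named genes, among them NDRG1, MKI67, CCNB1, EPCAM, KRT18, KRT20, VIL1, CA9, VEGFA, ISG15, FOS, EGR1, CCN1, CCN2, PTPRC, CD68, COL1A1, PDGFRB, and PECAM1, were chosen after their values were seen. A bound set the bright group against the lowest signal well above background. The members and lists were chosen with earlier results of these data known. Simulated data with 200 changed probes among 30260 gave 79% recovery of log2 changes of 1 and 96% of changes of 2, with 8 false calls. The simulated noise was independent between arrays and held no effect of slide, scan day, or scaling. Its false calls thus do not measure the error rate of the real comparison. Precision is limited by the number of tumors, since arrays have no counting depth. A few genes that these rules name are not reported here. Slide and scan day were read from the file headers. Alternatives were other normalizations, background models, filters, blocks and tests, and leaving out each tumor.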

Additional observations from a re-analysis of the deposited data

Results flagged for a closer look

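The K264R and RASSF1A tumors, grown from the same cell line, differed at 6705 genes. This is the direct test between these groups, since the vector tumors cancel when both groups are taken against them. Slide and construct cannot be told apart in it, so the count does not belong to the constructs alone. No group had enough tumors for a check of single outlying tumors.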

How the results depend on the processing

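The count of 6705 genes became 3073 (1400 higher, 1697 lower) with normexp background correction, which moved the median of all probes from -0.08 to 0.32 and turned 967 of the called probes in sign. Without spots of extreme background in that model it was 6592 (1827 higher, 4813 lower), with a median of -0.25. With the scan day as a block it was 3902 (1624 higher), within the shared scan day 3752 (1578 higher, 2206 lower), with the methods' t-test 6460 unadjusted and 4974 adjusted (2243 higher), and with the brightest probe of each gene 4053 (2214 higher, 1839 lower). For normexp and the scan day the cause was not tested, and the last count rests on fewer probes. Leaving out 1 tumor gave 6026 to 7298 genes, 3102 to 3793 higher and 2912 to 3712 lower, MOAP1 at 0.59 to 0.77 and RASSF1 at 0.09 to 0.23. MOAP1 was 0.56 with the median of each array set to 0, which moved the median of all probes to -0.20, and 0.50 with the scan day as a block (adjusted p = 0.1) or within the scan day (adjusted p = 0.121). The replicate block gave 6790 genes and changed no call of the 135 other named genes. The correlations of deviations of tumors with the same number were 0.12, 0.19, and 0.01. Tumors with different numbers were not compared, so whether the numbers pair the tumors is not settled. Under normexp the signs turned of PPP1R14A (0.22), ABRA (0.34), H2BC1 (0.33), FAM230C (0.37), HRK (0.11), MRE11 (0.18), and TRAF1 (0.35), and without the extreme spots those of PALM2AKAP2 (-0.16), FHDC1 (-0.48), RSU1 (-0.18), TMEM254 (-0.36), CA12 (-0.28), CXCL3 (-0.15), and LTBP2 (-0.39). Of the 135 named genes, 55 lost the call within the scan day, 39 under normexp, 21 without the extreme spots, 14 under quantile normalization, 3 with the median of each array set to 0, and 13 when some tumor was left out. The 135 include route members not called with all tumors, which had no call to lose. Other filters on dim probes, the authors' table, array weights, the 6 arrays alone, and the slide as a random block each changed at most 2 calls of the named genes tested. The filter for probes well above background in all 6 tumors left 126 of the 135 tested, so the calls of the rest could not be kept there. Signal over background limits the 8 probes given as bounds, whose size is not known.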
